A study of Mus musculus with 4 samples.

Results

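Mural cells, the pericytes and vascular smooth muscle cells that wrap small blood vessels, were described in single-cell RNA sequencing of dermal cells sorted from the back skin of mice that were 2, 12 or 18 months old. The cells were chosen by their own measured transcripts. A cell was a member when it held at least 1 UMI (a counted transcript molecule) of at least 3 of 7 markers, Rgs5, Notch3, Higd1b, Ndufa4l2, Rgs4, Tinagl1 and Sncg, with limits on genes of other cells: at most 1 of Pecam1, Cdh5, Kdr and Cldn5 (endothelium), at most 3 of Des, Synpo2, Lmod1, Npnt, Pcp4, Ckm and Mybpc1 (arrector pili and other muscle), and no UMI of Ptprc (leukocytes). Of 17130 deposited barcodes, 13877 passed the filter of 500 or more genes, 1000 or more UMIs and less than 10% of UMIs from mitochondrial genes, and 579 of these were members.

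The series asked, by its title, how mesenchymal progenitors of the hair follicle fare with age, and it held 4 libraries, each 1 sample. The 18-month library and its 2-month counterpart were made with 10x chemistry version 2 from α-SMACreERT2:RosaYFP mice, and the 12-month library and a second 2-month library with version 3 from α-SMACreERT2:RosaTDTomato mice, by the sample labels. All mice were on the C57BL/6J background and were given 4-hydroxytamoxifen on postnatal days 3 and 4. This switches the reporter on in cells that make smooth muscle actin in that early window, mural cells among them, and in their descendants, so the label is not specific to the hair follicle. In each library 5000 cells of a gate positive for the reporter and 5000 of a Cd26+ gate were mixed, and both gates also required Itga9 or Cd200. The labels give 2 mice per sample and do not say whether they were pooled. Nor do they name separate litters or preparation days, so spread between libraries may be technical. The design text counts 12 months with the young cohort, whereas here the 12-month library was compared with the 2-month library of its own chemistry.

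In version 2 the 18-month library held 21083193 UMIs and the 2-month library 17831300. In version 3 the 12-month library held 55396394 and the 2-month library 77032628. Kept cells numbered 2506 and 1729 in version 2, and 4087 and 5555 in version 3. Files and descriptions differ on cell numbers. The 18-month version 2 file had 2727 barcodes where its label states 3776 cells, and the 2-month one had 1906 where its label states 2604, while the design text states 2707 for sample 1 and 1906 for sample 2. Every direction for the 18-month pair therefore rests on the files being assigned to their samples as deposited. The 2 version 3 libraries shared 84 cell barcodes, the 2 version 2 libraries 7, and no barcode of a member was shared. The labels also disagree with the data on the reporter, since the eYFP entry was counted in the libraries labelled TdTomato as well.

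Mural cells lie within the basement membrane of the vessel they cover and hold its tone. Smooth muscle cells of arterioles contract through actin, smooth muscle myosin and its light chains, while pericytes of capillaries carry less of this machinery and are marked in mouse by the ATP-sensitive potassium channel made of Kcnj8 and Abcc9, and by Vtn and Cspg4. Notch3 signalling from the endothelium maintains mural identity, and vasoconstrictors act on them through receptors coupled to G proteins, which Rgs proteins such as Rgs5 switch off.

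The members were not evenly typical of mural cells, and the number of markers detected sorted them. Of the members, 475 had 5 or more of the 7 markers: 226 and 216 in the 18- and 2-month libraries of version 2, and 9 and 24 in the 12- and 2-month libraries of version 3. Another 104 members had 3 or 4 markers, 40 and 40 in version 2 and 8 and 16 in version 3, in the same order of ages. Only some of these 104 cells were rich in keratinocyte UMIs, but summed together the 104 cells went against the label. Their 12 keratinocyte genes (keratins and other epidermal genes) summed to 39922 and 100085 CPM (UMIs scaled to the same total in each group of cells) in version 2 and to 34951 and 47693 CPM in version 3. In members with 5 or more markers the same genes summed to 312.8 and 997 CPM, and to 47.2 and 5057 CPM. Of the 834 keratinocyte UMIs behind the last value, 793 came from 1 cell.

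The 20 pericyte genes that the rule does not use, among them Kcnj8, Abcc9, Vtn, Cspg4 and Pdgfrb, ran the other way. They summed to 3788 and 4281 CPM in version 2 and 5668 and 3396 CPM in version 3 in members with 5 or more markers, and to 1131 and 471.4, and 723.2 and 929.7 CPM in members with 3 or 4. At least 1% of UMIs came from the keratinocyte genes in 4 of 40 and 21 of 40 members with 3 or 4 markers in version 2, and in 3 of 8 and 7 of 16 in version 3, against 0 and 1, and 0 and 1, of those with 5 or more. Median depth also differed, with 4896 and 12514, and 13875 and 37566, UMIs per cell at 3 or 4 markers, against 4276 and 5386, and 6642 and 5950, at 5 or more. The few cells with 3 or 4 markers held 24.0% and 37.2% of the members' UMIs in version 2, and 67.2% and 77.0% in version 3. What part these cells are doublets, epidermal cells with stray mural transcripts or something else was not tested. Scrublet, a doublet caller, marked 10, 9, 2 and 5 cells in the 4 libraries at its own threshold, too few to be of use, and no cell was removed as a doublet. Values below are therefore given first for the 475 members with 5 or more markers, a choice made after these lists had been seen, followed by the counts of each gene list over all 579.

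At the threshold itself, 127, 161, 127 and 220 cells within the other limits had 2 markers and 15, 24, 6 and 12 had 3, in the order 18 and 2 months in version 2 and 12 and 2 months in version 3. Keratinocyte genes summed to 60224, 106432, 35896 and 50767 CPM just inside, and to 36242, 100272, 41408 and 43351 CPM just outside. Pericyte genes summed to 718.8, 223.5, 616.3 and 841.9 CPM just inside and to 669.1, 233.2, 513.1 and 577.3 CPM just outside. Contractile genes summed to 17734, 3830, 12500 and 4340 CPM just inside and to 8737, 2826, 9071 and 8079 CPM just outside, higher inside in 3 of the 4 libraries. The pericyte sums differed more from 3 to 5 markers than across the line: at 5 markers they came to 3292, 4343, 8525 and 4459 CPM. The 25, 16, 2 and 4 cells with 4 markers were mixed. Their contractile genes summed to 65288, 18168, 14603 and 41776 CPM, against 66529, 68114, 25574 and 48708 CPM at 5 markers. Their keratinocyte genes summed to 16329, 85459, 0 and 444.1 CPM.

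**Figure D1:**
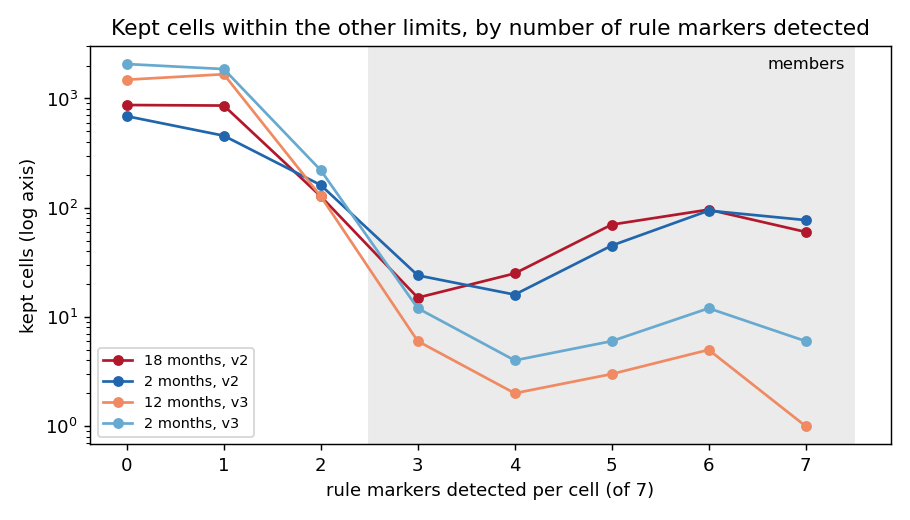
Kept cells that met the limits on other genes (log axis) by the number of rule markers detected, with 1 line per library (v2 and v3 are the chemistry versions) and the range of the members shaded. Both version 2 libraries dip to 15 and 16 cells at 3 or 4 markers and rise again to 96 and 94 cells at 6 markers, while the version 3 libraries hold 12 cells or fewer at each step from 3 markers on.

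**Figure D2:**
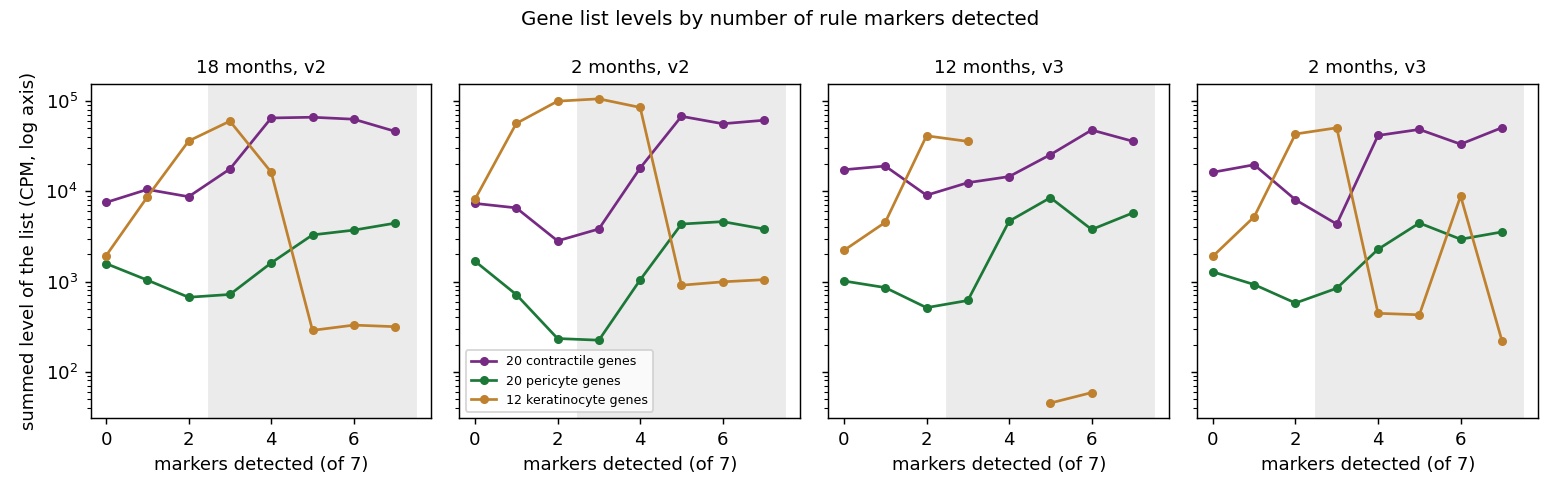
Summed CPM (log axis) of 20 contractile, 20 pericyte and 12 keratinocyte genes by the number of rule markers detected, 1 panel per library, with the range of the members shaded. In the version 2 panels the keratinocyte line lies at 60224 and 106432 CPM at 3 markers and at 287.3 and 910.5 CPM at 5 markers. The pericyte line goes from 1610 and 1043 CPM at 4 markers to 3292 and 4343 CPM at 5. The contractile line is at 65288 CPM at 4 markers and 66529 CPM at 5 at 18 months, and at 18168 and 68114 CPM at 2 months.

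The markers of the rule are given as a description, since they chose the cells. Rgs5, which switches off G protein signalling and is the best known pericyte transcript, was at 3238 and 4480 CPM in version 2 and 6361 and 4954 CPM in version 3 in members with 5 or more markers. It was at 12.9 and 10.0, and 1.81 and 10.8, CPM in all other kept cells. Sncg, a synuclein, was at 1925 and 2018, and 677 and 952 CPM, and Ndufa4l2, a mitochondrial protein induced by low oxygen, at 1436 and 1689, and 1685 and 1346 CPM. Notch3, the mural Notch receptor, stood at 435 and 516, and 283 and 522 CPM. All 7 markers were higher than in other cells in each of the 4 libraries.

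Genes outside the rule that stood highest over all other kept cells in every library, by the lowest of 4 ratios over all members, were Rergl, Dmp1, Gpr20, Myl1, P2rx1, Tmem182, Olfr558, Gucy1a3, Slc38a11, Olfr78, Timp4, Nrgn, Nrip2, Avpr1a, Vtn, Adra2a, Pln, Gucy1b3, Colec11 and Lin7a. The lowest ratio was 125 for Rergl and 26.8 for Lin7a. Of these 20 genes, 16 were also among the top 20 of members with 5 or more markers, whose other 4 were Map3k7cl, Tcf15, Tbx2 and Gja4. Several of them serve vessel tone: Gucy1a3 and Gucy1b3 are the subunits of the nitric oxide receptor guanylyl cyclase, Avpr1a is the vasopressin receptor of vascular smooth muscle, P2rx1 an ATP-gated channel, Adra2a an adrenergic receptor and Pln the inhibitor of the calcium pump of the sarcoplasmic reticulum. In members with 5 or more markers Gucy1a3 was at 354 and 382 CPM in version 2 and 661 and 655 CPM in version 3, against 2.25 and 1.98, and 0.874 and 2.70, CPM in other cells. Olfr558, an odorant receptor gene, was at 253 and 288, and 189 and 146 CPM, against under 1 CPM in other cells of all 4 libraries.

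Over all members, 13 of the 20 pericyte genes were higher than in other kept cells in each of the 4 libraries, and 15 in members with 5 or more markers. Of all 7401 genes with at least 50 UMIs, 15.8% were higher in all members and 25% in members with 5 or more markers. These shares rest on cells chosen for mural transcripts and are no test. Kcnj8 was at 98.4 and 154, and 189 and 133 CPM in members with 5 or more markers, against 5.78 and 1.5, and 2.37 and 1.40 CPM in other cells. Vtn, which encodes vitronectin, was at 125 and 108, and 157 and 103 CPM, against 0.856 and 1.02, and 0.0570 and 0.977 CPM. In both version 3 libraries each of these levels rests on 10 to 22 UMIs.

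**Figure D3:**
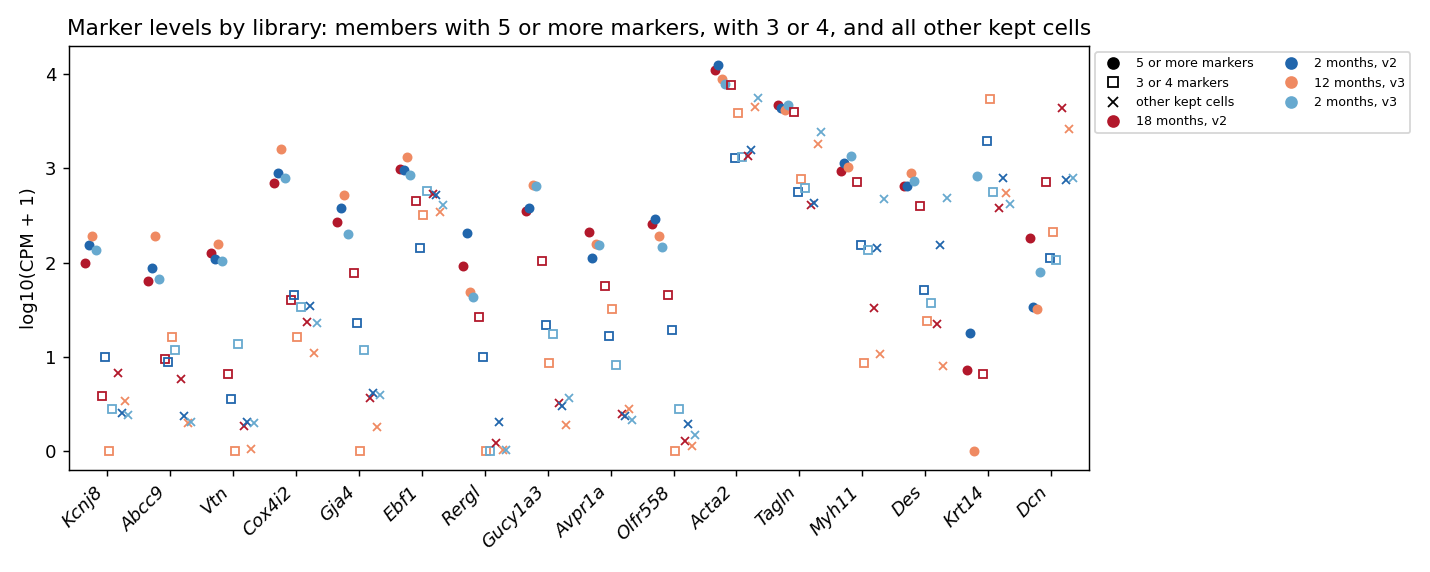
Levels of 16 genes as log10(CPM + 1), summed over cells of each library: members with 5 or more markers (filled circles), members with 3 or 4 (open squares) and all other kept cells (crosses), coloured by library. Kcnj8 to Olfr558 lie highest in members with 5 or more markers, below them in members with 3 or 4 markers, in which Krt14 is high in 3 of the 4 libraries.

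The share of mural cells in the sorted libraries was lower in both older libraries. Members were 10.6% of kept cells at 18 months (95% Clopper-Pearson interval 9.43% to 11.9%) and 14.8% at 2 months (13.2% to 16.6%) in version 2, a ratio of 0.717 (exact Poisson interval 0.602 to 0.855). In version 3 they were 0.416% at 12 months (0.242% to 0.665%) and 0.720% at 2 months (0.515% to 0.979%), a ratio of 0.578 whose interval of 0.307 to 1.04 took in 1. With 5 or more markers the ratios were 0.722 (0.596 to 0.874) and 0.510 (0.208 to 1.14). These intervals, like all others here, cover counting error only and not the spread between mice or preparations, and with 1 library on each side neither difference has a replicate check. The 2-month shares of the 2 chemistries lay farther apart than the ages did within either chemistry. Shares are of sorted cells after mixing 2 gates, so the other cells that passed the gates set them too.

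The contractile machinery marks the smooth muscle side of the population, and other actin-rich cells of the dermis share it. In members with 5 or more markers Acta2, smooth muscle actin, was at 11100 and 12403 CPM in version 2 and 8754 and 7823 CPM in version 3. Other kept cells had 1344 and 1559, and 4452 and 5635 CPM. Cells gated as arrector pili, the muscle that raises the hair, had 18067 and 16964, and 25401 and 23661 CPM. Mural cells thus lay between, in all 4 libraries. Myh11, the smooth muscle myosin heavy chain, showed the same order between mural and arrector cells: 944 and 1135, and 1023 and 1334 CPM, against 3822 and 3538, and 4971 and 5349 CPM. The arrector gate held 14, 19, 2 and 294 cells. Of the 20 contractile genes, 14 were higher in members with 5 or more markers than in other cells in every library, against 25% of all 7401 genes with at least 50 UMIs. Over all members 2 of the 20 were higher, against 15.8% of all genes.

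The promoters of the contractile genes were searched for the CArG box, the site of serum response factor, which with myocardin drives smooth muscle genes. Windows of 250 bases before to 50 after each RefSeq start (GRCm38.p6) were available for 17 of the 20 contractile genes, with 20 windows in all. The box was present, on either strand, in 3 of the 20 windows (15%), in 0 of 17 windows of the pericyte genes and in 535 of 32851 windows of all genes (1.63%). The 3 windows belong to Myl6 and Myl9, myosin light chains, and Vcl, the cytoskeletal linker vinculin. They are shown because these are the contractile genes of the list whose window holds the box, printed in capitals, at 50, 161 and 227 bases before the start.
Myl6: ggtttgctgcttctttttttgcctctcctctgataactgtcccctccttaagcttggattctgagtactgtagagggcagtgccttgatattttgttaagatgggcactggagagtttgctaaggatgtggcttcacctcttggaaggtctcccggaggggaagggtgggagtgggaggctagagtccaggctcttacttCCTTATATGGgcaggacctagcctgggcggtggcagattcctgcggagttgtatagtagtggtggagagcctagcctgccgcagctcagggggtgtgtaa
Myl9: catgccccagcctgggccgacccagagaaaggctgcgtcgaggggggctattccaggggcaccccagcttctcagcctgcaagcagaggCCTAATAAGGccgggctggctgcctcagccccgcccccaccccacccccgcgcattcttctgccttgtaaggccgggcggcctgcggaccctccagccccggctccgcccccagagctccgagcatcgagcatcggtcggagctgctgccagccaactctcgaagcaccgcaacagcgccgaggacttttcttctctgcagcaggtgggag
Vcl: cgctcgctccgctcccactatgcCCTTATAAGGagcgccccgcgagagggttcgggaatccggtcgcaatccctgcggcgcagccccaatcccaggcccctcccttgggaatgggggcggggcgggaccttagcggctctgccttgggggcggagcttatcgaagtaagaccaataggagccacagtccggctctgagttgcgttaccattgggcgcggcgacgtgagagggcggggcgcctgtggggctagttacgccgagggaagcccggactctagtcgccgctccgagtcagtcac
The Myl6 window is chr10:128492960-128493259 on the minus strand, the Myl9 window chr2:156775214-156775513 on the plus strand and the Vcl window chr14:20929148-20929447 on the plus strand. Myl9 was at 5502 and 6194, and 2928 and 3105 CPM in members with 5 or more markers, against 541 and 757, and 676 and 1363 CPM in other cells. Myl6 was at 6208 and 6210, and 3779 and 3820 CPM, and Vcl at 172 and 178, and 236 and 188 CPM. None of these 3 genes differed between ages beyond counting error in either pair of libraries except Myl9 in version 2, at 0.888 (0.859 to 0.918) of its 2-month level at 18 months. TGGGAA, the core of the motif of the Notch effector RBPJ, was found on either strand in 8 of 17 pericyte windows (47.1%), 8 of 20 contractile windows (40%), 5 of 17 windows of Notch pathway genes (29.4%) and 25.6% of all windows. It was counted apart from the CArG box, and neither match is evidence of binding.

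Mural cells varied along a contractile range. To place cells at equal depth, each member with 5 or more markers was thinned to 3000 UMIs, and Myh11, Cnn1, Mylk, Smtn, Ppp1r14a, Pln and Actg2 were counted as detected or not. This left out 18 shallower cells at 18 months and none elsewhere. At least 3 of the 7 were detected in 66.8% of cells at 18 months (60.0% to 73.2%, 139 of 208) and 75% at 2 months (68.7% to 80.6%, 162 of 216) in version 2. They were detected in 44.4% at 12 months (13.7% to 78.8%, 4 of 9) and 58.3% at 2 months (36.6% to 77.9%, 14 of 24) in version 3. The intervals overlapped within each chemistry.

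In the version 2 libraries, which hold enough cells to divide, most genes of the pericyte list were higher where few contractile genes were detected. Kcnj8 was at 275 CPM in cells with 1 or 2 contractile genes and 5.54 CPM in cells with 3 or more at 18 months, and at 463 and 13.8 CPM at 2 months. Its partner Abcc9 was at 168 and 12.5 CPM at 18 months and 238 and 21.2 CPM at 2 months. Kcnj8 was also the lower in the more contractile cells in version 3, at 233 and 45.7 CPM at 2 months on 18 and 4 UMIs, and with 7 UMIs against 0 at 12 months. Steap4 and Art3, both in the pericyte list, and Cox4i2, a subunit of mitochondrial cytochrome oxidase, followed the same order, Art3 at 255 and 16.6 CPM at 18 months and 420 and 80.5 CPM at 2 months. Of the 20 pericyte genes, 14 were higher in the less contractile cells in both version 2 libraries and 3 in the more contractile ones, against 36.8% and 27% of 7855 genes measured. Cspg4, a proteoglycan of pericytes, was one of the 3, at 34.7 and 88.7 CPM at 18 months and 80.2 and 122 CPM at 2 months. All 8 genes of the cell cycle list were higher in the less contractile cells, on few UMIs (Top2a, a topoisomerase of dividing cells, had 15 and 7 at 18 months and 23 and 0 at 2 months). The 7 markers of the rule were divided: 3 were higher in the less contractile cells of both version 2 libraries and 3 in the more contractile ones. Rgs5 was at 5816 and 1957 CPM at 18 months and 7064 and 3555 CPM at 2 months, while Sncg was at least 2-fold higher in the more contractile cells.

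At the contractile end stood genes of smooth muscle, those of the arrector pili list among them. Acta2 was at 5058 CPM with 1 or 2 contractile genes and 14247 CPM with 3 or more at 18 months, and at 5583 and 15123 CPM at 2 months. Rergl was at 29.0 and 122 CPM at 18 months and 33.9 and 272 CPM at 2 months. The voltage-gated potassium channel Kcna5 was at 14.5 and 65.1 CPM, and at 9.25 and 104 CPM, and P2rx1 at 14.5 and 147 CPM, and at 27.8 and 202 CPM. None of the 13 contractile genes outside the 7 used was higher in the less contractile cells in both libraries, and 12 were higher in the more contractile ones. So were all 5 measured genes of the arrector pili list, with Lmod1, Itga8 and Hspb6 at least 2-fold in both libraries. Of 8 measured dermal sheath genes, 4 were higher in the more contractile cells and 2 in the less contractile ones. What part arrector pili cells have in this end of the range was not tested. The nitric oxide receptor subunit Gucy1a3 differed little along the range, as the plot of the contractile range shows. The cells were divided by genes of the same data, so these values describe a range and are no test.

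**Figure D4:**
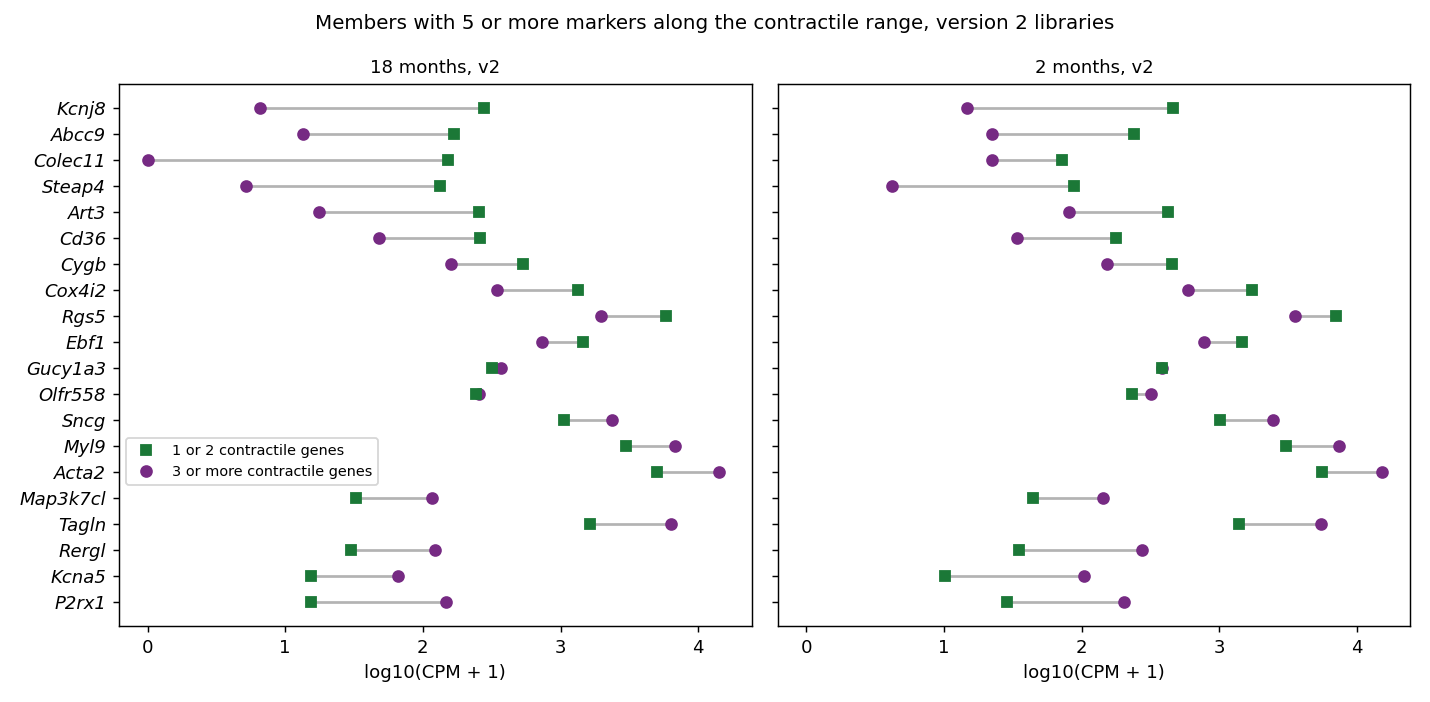
Levels of 20 genes as log10(CPM + 1) in members with 5 or more markers that had 1 or 2 contractile genes (squares) and 3 or more (circles) of 7 after thinning, at 18 and 2 months in version 2. Kcnj8 lies at 275 and 5.54 CPM at 18 months and at 463 and 13.8 CPM at 2 months, and Acta2, Tagln, Rergl, Kcna5 and P2rx1 lie the other way round in both panels.

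Between ages, immediate early and inflammatory genes were higher at 18 months in the version 2 pair. Among members with 5 or more markers, 305 of 7992 genes with at least 20 UMIs (3.82%) were at least 1.5-fold higher with a Poisson interval that left out 1, and 393 (4.92%) were as much lower. The same count gave 7.61% and 7.94% of 9324 genes over all members. Of 24 immediate early genes measured, 15 were higher and 0 lower, and all 24 had a ratio above 1, with a median log2 ratio of 0.72 against −0.06 for all genes. Over all members 14 were higher and 0 lower, and in all other kept cells 12 were higher and 1 lower (median 0.64), so the list also differed outside the mural cells. Marker lists of other cells had medians farther from 0 in members with 5 or more markers: keratinocyte genes (−1.72, 8 of 8 lower), papilla genes (−1.17, 4 of 7 lower) and fibroblast genes (1.05, 5 of 7 higher and 1 lower). Fosb, a subunit of the AP-1 factor, was at 372 CPM at 18 months and 137 CPM at 2 months, a ratio of 2.72 (2.28 to 3.26). Socs3, a brake on cytokine signalling, was at 784 and 264 CPM, a ratio of 2.97 (2.62 to 3.38), and Egr1 at 720 and 359 CPM, a ratio of 2.01 (1.79 to 2.25). Other kept cells were also higher at 18 months for these 3 genes, with Fosb at 295 and 113, Socs3 at 256 and 104 and Egr1 at 396 and 205 CPM. Such genes are also known to be induced by tissue dissociation, and the part of handling in these values was not tested. Mitochondrial UMIs made up 4.58% at 18 months and 3.86% at 2 months in these cells.

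The list of cytokines and chemokines moved with them in that library. It also holds the adhesion molecules Icam1 and Vcam1 and the regulators Nfkbia, Nfkbiz and Tnfaip3. Of 15 genes measured, 9 were higher, Icam1, Nfkbia and Nfkbiz among them. The 1 lower gene was Vcam1, and the median log2 ratio was 0.86. Over all members 12 of 19 were higher and 2 lower, and in all other kept cells 16 of 22 were higher and 0 lower, with a median of 1.14. Il6, an inflammatory cytokine, was at 540 CPM at 18 months and 143 CPM at 2 months, a ratio of 3.77 (3.20 to 4.47), against 20.2 and 2.53 CPM in other kept cells. Cxcl1, a neutrophil attractant, was at 1034 and 571 CPM, a ratio of 1.81 (1.65 to 1.99), against 31.5 and 26.8 CPM in other cells. Ccl2, a monocyte attractant, was at 191 and 64.2 CPM, a ratio of 2.98 (2.31 to 3.88), and Icam1, an adhesion molecule, at 35.4 and 5.35 CPM, a ratio of 6.62 (2.94 to 17.5). Along the contractile range, 10 of 15 genes of this list were higher in the less contractile cells of both version 2 libraries. The more contractile cells were higher for 2. The part of the contractile range in these ratios was not tested. Both Il6 and Cxcl1 were thus higher in these mural cells than in the pool of all other kept cells in both version 2 libraries. That pool mixes cell types, and whether any single type in it had more of these 2 transcripts was not tested. The summed level of 12 myeloid marker genes in members with 5 or more markers was 203 CPM at 18 months and 106 CPM at 2 months. The part of myeloid transcripts in these values was not tested.

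In the version 3 pair the members with 5 or more markers did not show this pattern at 12 months, while all members did for the immediate early genes. In members with 5 or more markers, 6.9% of 1724 genes were at least 1.5-fold higher and 5.45% lower by the same measure, and over all members 6.82% and 8.59% of 5437. Of 19 immediate early genes 1 was higher and 3 were lower, and of 7 genes of the cytokine and chemokine list 0 were higher and 3 lower. Over all members 9 of 23 immediate early genes were higher and 1 lower (median log2 ratio 0.50). Of 18 genes of the cytokine and chemokine list over all members, 1, the regulator Nfkbiz, was higher and 8 were lower. In all other kept cells 13 of 25 and 13 of 22 genes of the 2 lists were higher, and 0 and 1 lower. Il6 was at 252 CPM at 12 months and 649 CPM at 2 months, a ratio of 0.388 (0.214 to 0.660), Cxcl1 at 1197 and 2511 CPM, a ratio of 0.477 (0.368 to 0.610), and Cxcl2 at 315 and 837 CPM, a ratio of 0.376 (0.223 to 0.604). In version 2 Cxcl2 was at 123 and 42.1 CPM, a ratio of 2.93 (2.13 to 4.08). The 12-month values come from 9 cells. Of 1717 genes measured in both pairs, 55 had intervals on opposite sides of 1, and 27 of these were higher at 18 months. Age, chemistry and mice differ between the pairs, and their parts cannot be told apart.

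Pericyte genes had medians on opposite sides of 0 in the pairs in members with 5 or more markers, but on the same side over all members. At 18 months 2 of 20 were higher and 4 lower (median log2 ratio −0.25), and at 12 months 6 of 13 were higher and 0 lower (0.64, against 0.11 for all genes). Over all members 4 of 20 were higher and 0 lower at 18 months (0.08), and 5 of 14 higher and 0 lower at 12 months (0.79). Of all genes measured, 7.61% were higher and 7.94% lower at 18 months over all members, and 6.82% and 8.59% at 12 months. With 5 or more markers these shares were 3.82% and 4.92%, and 6.9% and 5.45%. Kcnj8 was at 98.4 CPM at 18 months and 154 CPM at 2 months, a ratio of 0.640 (0.503 to 0.811). Art3 was at 104 and 183 CPM, a ratio of 0.567 (0.451 to 0.711), and Heyl, a Notch target, at 57.6 and 105 CPM, a ratio of 0.550 (0.403 to 0.744). Colec11, a collectin, went the other way at 52.3 and 32.9 CPM, a ratio of 1.59 (1.05 to 2.41). At 12 months Cox4i2 was at 1606 CPM, against 794 CPM at 2 months, a ratio of 2.02 (1.54 to 2.64), and Gja4, a gap junction protein of arterial cells, at 520 and 200 CPM, a ratio of 2.60 (1.55 to 4.34). In version 2 the ratios of these 2 genes were 0.768 (0.701 to 0.842) and 0.719 (0.621 to 0.830). The share of cells with 3 or more contractile genes, given above, differed in the same libraries, and its part in these ratios was not tested.

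Contractile genes as a list did not differ at the size counted. At 18 months 0 of 20 were 1.5-fold higher or lower in members with 5 or more markers (median log2 ratio −0.12), and at 12 months 0 of 17 were higher and 2, Mylk and Map1b, were lower (−0.17). Of all genes measured, 7.61% were higher and 7.94% lower at 18 months over all members, and 6.82% and 8.59% at 12 months. With 5 or more markers these shares were 3.82% and 4.92%, and 6.9% and 5.45%. Acta2 had a ratio of 0.895 (0.874 to 0.916) at 18 months and 1.12 (1.01 to 1.24) at 12 months, and Myh11 of 0.832 (0.768 to 0.900) and 0.767 (0.573 to 1.02). Over all members the lists read otherwise, with 4 of 20 contractile genes higher at 18 months and 6 of 18 higher and 2 lower at 12 months, where the 12 keratinocyte genes also summed to 9836 and 37909 CPM, and 23494 and 37898 CPM. The regulators of smooth muscle had 4 of 16 genes higher and 0 lower at 18 months, and over all members 4 of 17 and 1. Id3, an inhibitor of helix-loop-helix factors, was at 2233 and 1417 CPM there, a ratio of 1.58 (1.48 to 1.67), and at 1448 and 1079 CPM in version 3, a ratio of 1.34 (1.03 to 1.74).

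Receptors and channels of vessel tone differed gene by gene. At 18 months 4 of 23 vasoactive receptor and cGMP genes were higher and 1, P2rx1, was lower, and at 12 months 0 of 12 were higher and 2 lower. Over all members 9 of 25 were higher and 1 lower at 18 months, and 2 of 15 higher and 0 lower at 12 months. Of all genes measured, 7.61% were higher and 7.94% lower at 18 months over all members, and 6.82% and 8.59% at 12 months. With 5 or more markers these shares were 3.82% and 4.92%, and 6.9% and 5.45%. Avpr1a was at 209 CPM at 18 months and 111 CPM at 2 months, a ratio of 1.89 (1.53 to 2.34), and Ptgir, the prostacyclin receptor, at 66.5 and 27.5 CPM, a ratio of 2.42 (1.60 to 3.70). Rgs16, another G protein regulator, was at 379 and 174 CPM, a ratio of 2.19 (1.86 to 2.58), and at 12 months at 441 CPM, against 819 CPM at 2 months, a ratio of 0.538 (0.345 to 0.814). Of the ion channel and calcium genes 0 of 17 were higher and 3 lower at 18 months, Kcnj8 among them and Kcna5 at 47.9 and 77.2 CPM, a ratio of 0.620 (0.437 to 0.871). At 12 months 2 of 7 were higher and 0 lower. Over all members 1 of 19 was higher and 0 lower at 18 months, and 2 of 11 and 0 at 12 months.

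In the basement membrane list 0 of 20 genes were higher and 1 lower at 18 months (median log2 ratio −0.32), and 2 of 11 were higher and 1 lower at 12 months. Over all members 2 of 20 were higher and 0 lower, and 4 of 17 higher and 1 lower. Of all genes measured, 7.61% were higher and 7.94% lower at 18 months over all members, and 6.82% and 8.59% at 12 months. With 5 or more markers these shares were 3.82% and 4.92%, and 6.9% and 5.45%, so 1 lower gene of 20 was near the share of all genes. The lower gene at 18 months was Col4a2, a chain of type IV collagen, at 239 CPM at 18 months and 369 CPM at 2 months, a ratio of 0.648 (0.556 to 0.753). Among interstitial matrix genes 6 of 26 were higher and 1 lower at 18 months, and 2 of 13 higher and 1 lower at 12 months. Over all members 12 of 28 were higher and 1 lower at 18 months, and 3 of 26 higher and 6 lower at 12 months. Lum and Dcn, both among the 6, are proteoglycans of fibroblasts, with Dcn at 180 and 32.9 CPM, against 326 and 91.2 CPM in cells gated as keratinocytes and 4310 and 749 CPM in all other kept cells. A level below that in the keratinocyte gate is not read here as expression in mural cells. The fibroblast gate held 325 cells at 18 months and 17 at 2 months. Mgp, matrix Gla protein, was the lower one, at 38.1 and 170 CPM, a ratio of 0.225 (0.158 to 0.312).

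Interferon and antigen presentation genes had 1 of 17 higher and 6 lower at 18 months (median log2 ratio −0.45), and 2 of 8 higher and 0 lower at 12 months. Over all members 2 of 18 were higher and 5 lower, and 4 of 10 higher and 1 lower. Of all genes measured, 7.61% were higher and 7.94% lower at 18 months over all members, and 6.82% and 8.59% at 12 months. With 5 or more markers these shares were 3.82% and 4.92%, and 6.9% and 5.45%. Irf1, an interferon regulatory factor, was at 164 and 79.5 CPM, a ratio of 2.06 (1.61 to 2.65), and at 236 and 115 CPM at 12 and 2 months in version 3, a ratio of 2.05 (0.969 to 4.26). Bst2, an antiviral membrane protein, was at 62.9 and 118 CPM in version 2, a ratio of 0.531 (0.395 to 0.707). In version 3 it was at 236 and 60.6 CPM, a ratio of 3.90 (1.64 to 9.69). Keratinocyte genes were lower in both older libraries, 8 of 8 measured at 18 months and 7 of 7 at 12 months. In version 3 this rests on the 1 cell named above in the 2-month library. The part of this in the ratios of genes that epidermal cells also make was not tested.

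**Figure D5:**
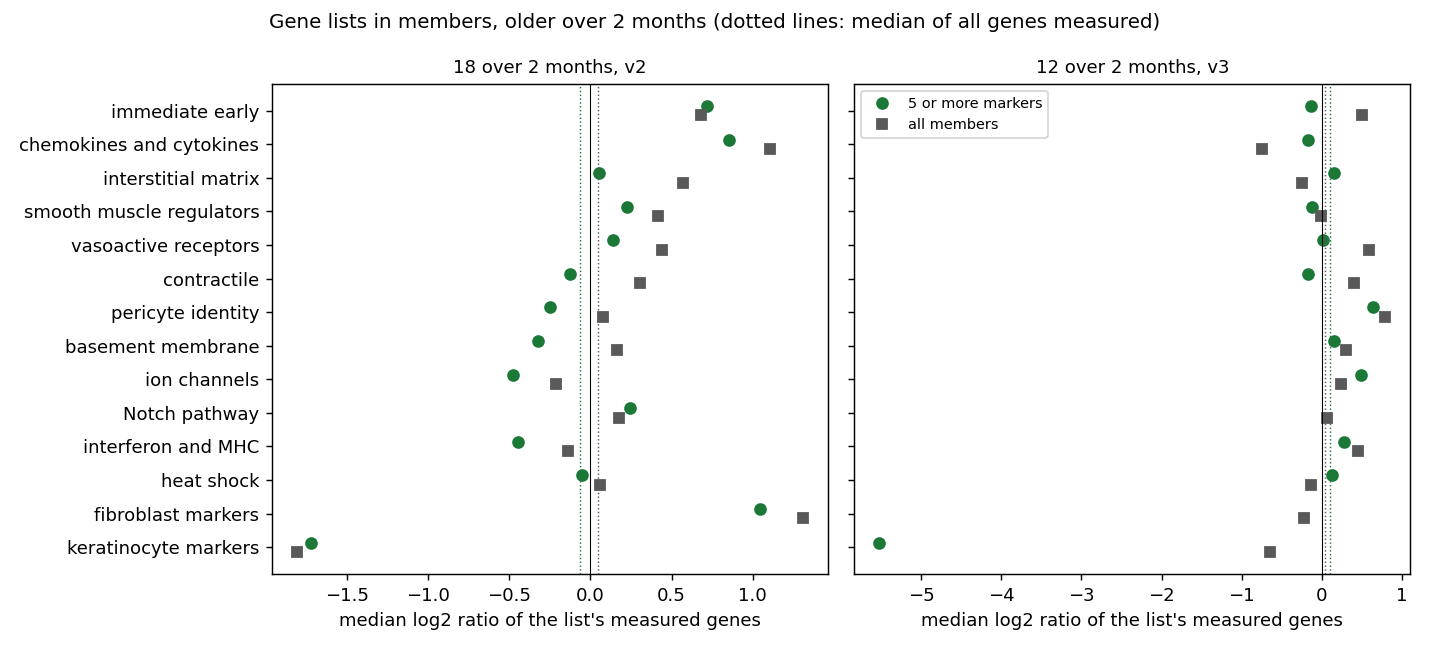
Median log2 ratio of each gene list's measured genes, older over 2 months, for members with 5 or more markers (circles) and all members (squares), with dotted lines at the median of all genes and no point where fewer than 5 genes were measured. For members with 5 or more markers, immediate early genes lie at 0.72 in the version 2 panel and at −0.13 in the version 3 panel. The cytokine and chemokine list lies at 0.86 and −0.17, and pericyte genes lie at −0.25 and 0.64.

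Across the 4 libraries, the 18- and 12-month members were tested against both 2-month ones, with chemistry as a covariate, by edgeR's quasi-likelihood test with Benjamini-Hochberg adjustment, which left 1 residual degree of freedom. Over all 579 members, 199 of 8608 genes were called at an adjusted p under 0.05 (2.31%), 36 higher and 163 lower. The lower genes were led by Sprr1a, Sprr2d, Sprr2h and Crct1 of the cornified envelope, and 162 of the 163 were higher in cells gated as keratinocytes than in members with 5 or more markers at 2 months in version 2, and 155 at least 5-fold. All 163 were also higher in members with 3 or 4 markers than in those with 5 or more in that library. The same shares over all 8608 genes were not counted. That library was also 1 of the 4 in the fit that called these genes, so the counts are a description and no test. Not all of the 163 were epidermal genes. Rspo3 (−1.96), Crabp1 (−1.50) and Fgf7 (−1.26), of the dermal papilla list, were among the lower ones on the log2 scale. Crabp1 was at 408 and 1130 CPM in members with 3 or 4 markers and at 0 and 18.2 CPM in those with 5 or more in version 3. Mgp was the exception to the keratinocyte gate, with 50.3 CPM there and 170 CPM in members with 5 or more markers. With 5 or more markers 0 of 6737 genes were called (0%), with 201 at an unadjusted p under 0.05. DESeq2, run over all members, called 80 genes there.

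Of the 36 genes that rose over all members, 9 were higher in the keratinocyte gate and 14 in members with 3 or 4 markers than in those with 5 or more, in the same library. These counts too have no share over all genes beside them and are no test. Uap1, an enzyme of UDP-N-acetylglucosamine synthesis, was at 139 CPM at 18 months and 37.9 CPM at 2 months in version 2, and at 248 CPM at 12 months and 82.2 CPM at 2 months in version 3. Its log2 fold change was 1.71 (SE 0.25, edgeR adjusted p = 0.00218). With 5 or more markers the fold change was 1.75 and missed the threshold (edgeR adjusted p = 0.191), with levels of 129 and 50.5 CPM, and 567 and 103 CPM. Socs3 rose by 1.73 (SE 0.26, edgeR adjusted p = 0.00256), but with 5 or more markers its version 3 ratio was 0.890 (0.421 to 1.76). Irf1 (1.72), Klf2 (1.62), Ednrb (1.49), Id3 (1.13) and Actg2 (1.33) rose as well. With 5 or more markers Ednrb, an endothelin receptor, had a ratio of 3.29 (2.06 to 5.42) in version 2 and of 0.208 (0.0238 to 0.833) in version 3, on 2 and 25 UMIs. Actg2, an actin of smooth muscle, had ratios of 1.28 (0.988 to 1.65) and 0.433 (0.0817 to 1.48). Over all members Mgp (−3.08), Il33 (−2.32), Adm (−3.57) and Ptgs1 (−1.34) fell on the log2 scale. None of these genes was called with 5 or more markers. Without the 18-month or without the 12-month library 0 genes were called, and without the 2-month library of version 2 or of version 3 76 and 43, in fits with no chemistry term.

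A separate fit asked whether the difference between ages was another in members than in the remaining cells of the same libraries. It called 122 of 13983 genes (0.872%), and 27 of 13790 (0.196%) with 5 or more markers, 13 with a larger and 14 with a smaller value in mural cells. The leading genes in the first direction were of smooth muscle. Myh11 was at 944 and 1135 CPM in version 2 and 1023 and 1334 CPM in version 3 in members with 5 or more markers. In kept cells outside all 579 members Myh11 was at 31.6 CPM at 18 months and 141 CPM at 2 months, and 9.69 CPM at 12 months and 471 CPM at 2 months. The fit with 5 or more markers also counted the 104 cells with 3 or 4 markers among the other cells. In that fit the difference of the log2 changes of Myh11 was 3.16 (SE 0.41, edgeR adjusted p = 1.204e-10). Pcp4l1 (3.29), Cnn1, calponin (3.39), Rbpms2 (2.11) and Aoc3, a vascular amine oxidase (1.86), were called in the same direction, and so was Des (4.16), which the rule itself limits. In the other direction stood Krt17 (−4.44), Serpina3n (−2.46), Krt14 (−3.10) and Procr, the protein C receptor (−2.35). Krt17 was at 4.43 and 5.35 CPM in version 2 and at 0 and 1055 CPM in version 3, where 1 cell at 2 months held most keratinocyte UMIs. The older libraries also had few cells in the arrector pili gate, 14 against 19 and 2 against 294, and the part of this in the contrast was not tested.

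The lineage label and the sort genes were read last, and they did not set these cells apart from arrector pili muscle. An eYFP UMI was found in 99.6% of members with 5 or more markers at 18 months (225 of 226) and in all of 216, 9 and 24 members in the other 3 libraries. Cells gated as keratinocytes, which should lack the label, had one in 65.8%, 44.3%, 71.9% and 67.9%, with median depths of 9340, 7219, 16644 and 10263 UMIs against 4276, 5386, 6642 and 5950 in the mural cells. The levels were far apart, at 11783 and 5184, and 5794 and 4312 CPM in mural cells, against 164 and 159, and 115 and 123 CPM in keratinocytes. In the arrector pili gate, of 14, 19, 2 and 294 cells, 100% had an eYFP UMI in each library. Its eYFP levels were 7943 and 3239, and 9121 and 4262 CPM. In mural cells the older library stood at 2.27 times the 2-month eYFP level in version 2 (2.21 to 2.34) and at 1.34 times in version 3 (1.18 to 1.53). In version 2 other kept cells also differed, at 2344 CPM at 18 months and 854 CPM at 2 months. Cd200, one of the sort antigens, had a UMI in 52.7% and 67.6%, and 66.7% and 41.7%, of mural cells, against 40.1% and 53.4%, and 29.6% and 33.4%, of keratinocytes. Arrector pili cells had a Cd200 UMI in 71.4% and 73.7%, and 100% and 71.4%. Dpp4, which encodes Cd26, was found in 0.442% and 0.463% of mural cells in version 2 and in 0 of 9 and 0 of 24 in version 3.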

How the data were processed

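Each deposited matrix holds raw UMI counts, whole numbers for every gene in every called barcode, which the authors generated with Cell Ranger 2.0.1, STAR and Seurat 2.1.0 on builds mm10 and GRCm38.p5, per the submitters' processing notes, which give no roles and no STAR version. Cell Ranger 3.0.1 is named in the version 3 files, per the file headers. Counting settings are not given in the sources used here, and barcodes outside the called cells were not analysed here. All 27999 genes entered the totals.

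UMIs were summed over cells of a population in each library and scaled to CPM. Ratios between libraries have exact conditional Poisson intervals and shares have Clopper-Pearson intervals, both at 95% (Python 3.11.15, numpy 2.4.6, scipy 1.17.1, pandas 2.3.3, scanpy 1.11.5 for Scrublet). A gene was measured in a pair with at least 20 UMIs. Fits used edgeR 4.0.16 (R 4.3.3, limma 3.58.1), two-sided, with TMM (trimmed mean of M-values) scaling, its default filter on low counts and Benjamini-Hochberg adjustment at 0.05; DESeq2 1.42.0 was an alternative. The code was tested on simulated data. Comparison populations were gated by markers of their own, keratinocytes and arrector pili among them.

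Genes were named by rule: the rule markers; the 20 highest over other cells; for each pair the 12 in each direction with an interval farthest from 1; the leading genes of the fits; and 2 to 4 examples of each list. Genes named beyond these were chosen after their values were seen. The members, gene lists and tests were chosen with earlier results of these data known.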

Additional observations from a re-analysis of the deposited data

Results flagged for a closer look

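Of the genes named with a ratio between ages, 12 had counting intervals on opposite sides of 1 in the 2 pairs, among members with 5 or more markers. The difference between the pairs was not tested, since each side of a pair is 1 library and the pairs differ in age, chemistry, labelled reporter and mice, which cannot be told apart. At 18 months over 2 months in version 2 the ratios above 1 were those of Il6 (3.77), Ednrb (3.29), Cxcl2 (2.93), Rgs16 (2.19), Egr1 (2.01) and Cxcl1 (1.81). In version 3, 12 months over 2 months, the same genes had ratios of 0.388, 0.208, 0.376, 0.538, 0.499 and 0.477. The ratios below 1 in version 2 were those of Bst2 (0.531), Art3 (0.567), Gja4 (0.719), Rgs5 (0.723), Cox4i2 (0.768) and Acta2 (0.895), which had ratios of 3.90, 2.41, 2.60, 1.28, 2.02 and 1.12 in version 3.

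Barcodes outside the quality filter also held cells that met the marker rule. They numbered 17 at 18 months and 7 at 2 months in version 2, with 6 and 2 of them at 5 or more markers, and they entered no comparison.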

How the results depend on the processing

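The shares of members kept their direction in both pairs under all 6 alternatives run, and without the limits on other genes the version 3 ratio was 0.434 (0.259 to 0.703). The counts of genes did depend on the choice of cells. Over all members 199 genes were called between ages by edgeR, against 80 with DESeq2, 415 with every gene of 1 UMI, 0 without a chemistry term, 58 with 12 months counted as young, 62 and 0 with at least 4 and 5 markers, 34 after thinning to 3000 UMIs and 26 without limits on other genes. Leaving out 1 library gave 0 to 76. The contrast of members with other cells gave 122 genes, against 13 with DESeq2, 56 and 27 with at least 4 and 5 markers and 46 after thinning. In version 2, 710 genes were 1.5-fold higher and 740 lower over all members. With at least 4 markers 375 were higher, with at least 5 markers 305 were higher and 393 lower, and after thinning 309 and 456. In version 3 the counts of 371 and 467 became 129 and 119, 119 and 94, and 137 and 149 under the same 3 choices. Genes 2-fold above other kept cells in every library numbered 224 over all members, 480 with at least 5 markers and 466 after thinning, among genes with 50 UMIs in the cells so chosen. With at least 5 markers the share with 3 or more contractile genes was 75% at 2 months in version 2 and 58.3% at 2 months in version 3, against 67.6% and 40% over all members, an alternative chosen after seeing the data.

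Log2 ratios that changed sign against all members did so where cells with few markers were left out or cells were thinned. In version 2 Acta2 was at −0.16 with at least 5 markers and −0.060 thinned, Myh11 at −0.056, −0.27 and −0.16 with at least 4, at least 5 and thinned, Myl9 at −0.012, −0.17 and −0.13, Myl6 at −0.00049 and Vcl at −0.051 with at least 5. In version 3, with at least 4 and 5 markers, Myl9 was at −0.10 and −0.082, Myl6 at −0.10 and −0.014, Fosb at −0.26 and −0.33, Socs3 at −0.21 and −0.13 and Egr1 at −1.11 and −0.96. Ednrb was at −1.14, −1.97 and −1.83 and Actg2 at −1.46, −1.03 and −0.78 with at least 4, at least 5 and thinned, and Col4a2 at −0.058 thinned. Beyond their construction from fewer cells the cause was not tested. Of 446 values of named genes under all alternatives, 318 stayed within their counting interval, 101 lay outside it, and 27 changed sign. TMM scaling within a pair changed no sign. The version 3 members with 5 or more markers are 9 and 24 cells, so small differences there were not detectable at this depth. No paired analysis by replicate number was possible because the groups compared share fewer than 2 of them, and the libraries are paired only by chemistry, the covariate of the fit.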
